A study of Mus musculus with 7 samples.

Results

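The 10 genes described here were grouped as enzymes that build, branch and cap O-glycans, the sugar chains attached to serine and threonine residues of surface proteins. Not all act on O-glycans alone, as *B4galt1* also extends N-glycans and *St6gal1* acts mostly on N-glycans. The members were the rows of the deposited count table whose symbol is *Gcnt1*, *Gcnt2*, *Gcnt3*, *Gcnt4*, *C1galt1*, *B4galt1*, *St3gal1*, *St3gal6*, *St6gal1* or *Fut7*, and all 10 were found among its 55367 genes. The family was selected on the measured level of *Gcnt3*, already known to be higher with LME-sEVs, in this same contrast, and the other members were added by function. The values of *Gcnt3* are therefore given as a description, and calls that count it are support for nothing. Of the 10 genes, 8 reached 5 counts per library on average and were tested, whereas *Gcnt2* and *Gcnt4* did not. The average was over both groups, so *Gcnt3* reached it only through its counts with LME-sEVs. *Gcnt2* and *Gcnt4* missed it only through their low counts with LME-sEVs.

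CD8+ T cells were sorted from spleens of Foxp3 YFP/cre mice and cultured for 48 hours with small extracellular vesicles (sEVs) at 100 μg/mL according to the labels, whereas the methods describe the amount found in each kind of spleen. The paper found more sEVs in leukemic than in healthy spleens. If the methods hold, the dose therefore differed along with the kind of vesicle, and these cannot be told apart. The 4 HCME-sEV cultures received control vesicles, prepared from spleens of healthy mice. The 3 LME-sEV cultures received vesicles from leukemic spleens of Eμ-*TCL1* mice, in which a B-cell enhancer drives the human oncogene *TCL1*. The group sizes are those of the labels, whereas the study's legend for this experiment gives them the other way round. Such preparations hold the vesicles of all cells of the spleen and not of leukemia cells alone. Per the methods, CD8+ T cells were kept on anti-CD3 with anti-CD28 and IL2, so the stimulus was shared by both groups. The degree of activation may not have been, as the paper reports lower *Tlr7* and *Icosl*, which it ties to activation, with LME-sEVs. Its part in the members' levels was not tested. No animal age is in the labels, nor whether libraries of a group came from separate mice, so p-values measure only the spread between these libraries, which may be technical.

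O-glycan synthesis begins in the Golgi, where a GalNAc residue is placed on the protein. C1galt1 adds galactose to give the core 1 structure. Core 1 is then either branched by enzymes of the Gcnt family into core 2, which B4galt1 and fucosyltransferases can extend, or closed by the sialyltransferase St3gal1. In CD8+ T cells the balance between core 1 and core 2 is known to shift upon activation, and the extended, fucosylated and sialylated chains serve as ligands of selectins.

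Libraries held between 3689831 and 5030522 counts, and 3 counts, the floor used for a low level, amounted to between 0.580 and 0.804 CPM (counts scaled to a fixed library total after TMM normalization). Each count is a transcript 3′ end collapsed by its molecular identifier, so gene length does not enter. Levels of different genes can be set side by side only as far as their 3′ ends were captured and annotated alike, which was not tested. Floors, and the exact intervals on summed counts and on shares of counts, cover counting error only. Intervals on fold changes come from edgeR's fit and also cover the spread between libraries. Markers of CD8+ T cells were abundant, with 9 genes summing to between 2842 and 2917 CPM with HCME-sEVs and between 2980 and 3295 CPM with LME-sEVs, without overlap, and 2 of the 9 (*Cd3e* and *Cd3g*) were higher at an edgeR FDR under 0.05. Their part in the members' levels was not tested. Among markers of other T cells, *Cd4* had at most 3 counts and *Foxp3* at most 1. Of all 12623 tested genes, 473 (3.75%) were higher and 658 (5.21%) lower in LME-sEV libraries at an edgeR FDR under 0.05, the p of the quasi-likelihood test after Benjamini-Hochberg adjustment over all of them.

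Apart from *Gcnt3*, *C1galt1* was the only tested gene of the family that passed the threshold, and it was higher with LME-sEVs. Counting *Gcnt3*, 2 of the 8 tested genes had an FDR under 0.05 in the higher direction, beside 3.75% of all tested genes, and 0 had one in the lower direction, beside 5.21%. Since the choice of family fixed the place of *Gcnt3* in the first count, nothing is read from it. At an unadjusted p under 0.05, the same edgeR test gave 3 genes higher, *Gcnt3* among them, and 1 lower (*St3gal6*), beside 10.4% and 12.3% of all tested genes. The filter on low counts kept *Gcnt3* and removed *Gcnt2* and *Gcnt4*. Without it, the test at this p gave 3 of 10 genes higher and 3 lower. Of all 26474 genes fitted that way, 3467 had such a p in either direction. DESeq2 and limma-voom also gave 0 lower genes at an FDR under 0.05. The median log2 fold change was 0.06 over the 8 genes and 0.0096 over all tested genes. Between the groups, libraries were fully separated for 4 of the 8, 2 higher and 2 lower, beside 9.49% and 10.8% of all tested genes, or 20.3% in either direction. No gene of the family other than *Gcnt3* had a change beyond 1 on the log2 scale together with an FDR under 0.05, a pair of criteria met by 0.626% of all tested genes in the higher and 0.658% in the lower direction. The summed level of the 10 genes was between 324 and 379 CPM with HCME-sEVs and between 394 and 408 CPM with LME-sEVs, and *B4galt1* supplied most of it.

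**Figure D1:**
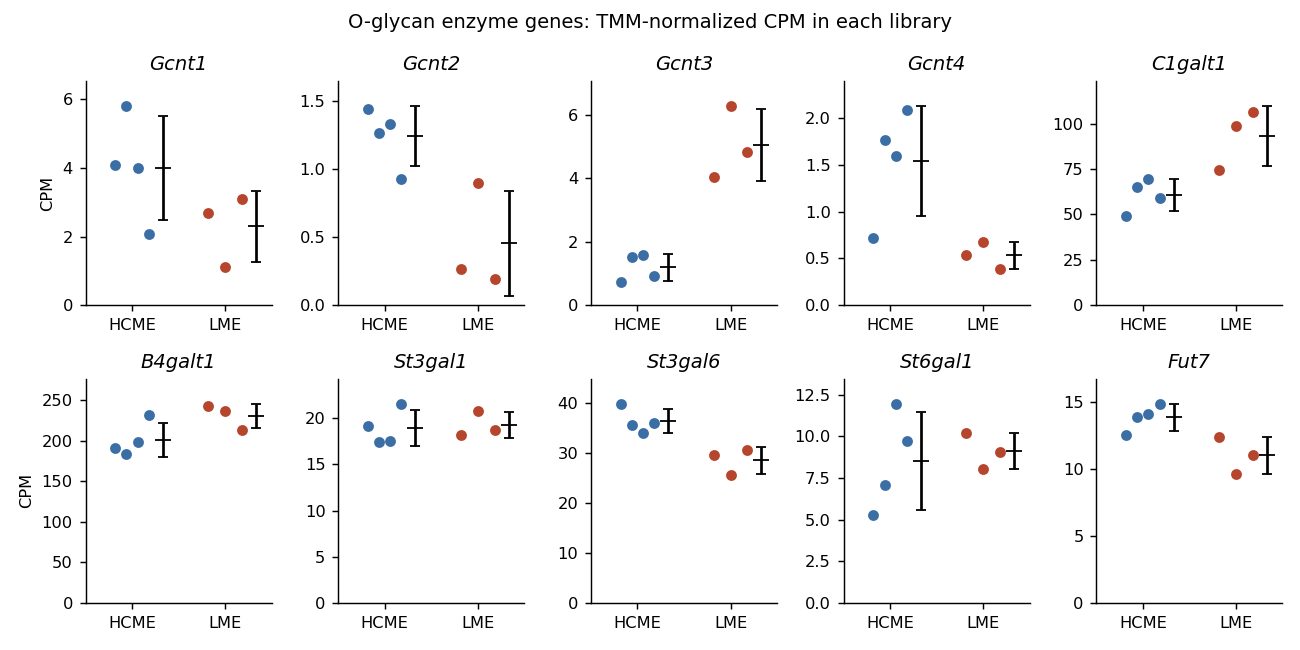
Level of each of the 10 genes in each library, in TMM-normalized CPM on a vertical axis that starts at 0, with HCME-sEV libraries in blue (n = 4) and LME-sEV libraries in red (n = 3). Black bars are the mean and SD of a group. The LME-sEV libraries lie above the HCME-sEV libraries for *Gcnt3* and *C1galt1*, and below them for *Gcnt2*, *Gcnt4*, *St3gal6* and *Fut7*.

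*C1galt1* encodes core 1 synthase, which makes the precursor of both core 2 and sialylated core 1. It lies on chromosome 6 of GRCm38 from 7844842 to 7875687 on the plus strand (GENCODE vM21, which also gave the positions that follow). Its level was 49.0, 64.9, 69.7 and 59.2 CPM in HCME-sEV libraries 1 to 4. In LME-sEV libraries 1 to 3 it was 74.5, 98.6 and 106 CPM. Every LME-sEV library was above every HCME-sEV library, although LME-sEV library 1 was close to the upper end of the other group. The means were 60.7 ± 8.90 CPM (n = 4, SD) with HCME-sEVs, against 93.1 ± 16.6 CPM (n = 3, SD) with LME-sEVs. The log2 fold change of 0.63 (SE, the standard error, 0.12, edgeR FDR 0.00298) lay inside the cutoff of 1 used by the study for differentially expressed genes. Leaving out each library in turn gave log2 fold changes from 0.52 to 0.76, all with an FDR under 0.05. The gene overlaps *Gm43961* on the same strand and *Gm43962* on the opposite strand, and whether the counting used the strand is not given in the sources used here.

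C1galt1 protein needs the chaperone encoded by *C1galt1c1* (Cosmc) to fold. *C1galt1c1* was at 19.2, 15.7, 21.0 and 15.1 CPM with HCME-sEVs and at 10.5, 15.2 and 17.4 CPM with LME-sEVs, so the groups overlapped. Its log2 fold change of -0.28 (95% interval -0.65 to 0.093, edgeR FDR 0.381) did not pass the threshold. The number of *C1galt1* counts per count of *C1galt1c1* was 2.55, 4.15, 3.32 and 3.92 with HCME-sEVs and 7.13, 6.47 and 6.11 with LME-sEVs. The ratio thus had a mean of 3.48 (SD 0.714, n = 4) and of 6.57 (SD 0.516, n = 3), and the groups did not overlap. *C1galt1* alone already separated the groups, and *C1galt1c1* was added after its values were seen, so the ratio is a description only.

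Genes of the Gcnt family encode the enzymes that add the GlcNAc branch. *Gcnt1* encodes the core 2 enzyme of leukocytes, *Gcnt3* an enzyme known from mucin-secreting epithelium that makes both core 2 and core 4, *Gcnt4* a further core 2 enzyme, and *Gcnt2* the enzyme of I-branching. All 4 were low, with mean levels over the 7 libraries of 3.27 CPM for *Gcnt1*, 2.84 CPM for *Gcnt3*, 1.11 CPM for *Gcnt4* and 0.903 CPM for *Gcnt2*. *Gcnt1* and *Gcnt3* had more counts than 17.3% and 16.0% of the tested genes.

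*Gcnt3* lies on chromosome 9 from 70031496 to 70038088 on the minus strand, and no other annotated gene overlaps it. It was counted 3, 6, 6 and 4 times in HCME-sEV libraries 1 to 4 and 15, 28 and 25 times in LME-sEV libraries 1 to 3. The means were 1.19 ± 0.432 CPM (n = 4, SD) with HCME-sEVs, against 5.04 ± 1.14 CPM (n = 3, SD) with LME-sEVs. The fitted log2 fold change was 2.08, and it stayed between 1.90 and 2.25 when any 1 library was left out. The lowest LME-sEV library, at 4.02 CPM, was above the highest HCME-sEV library, at 1.60 CPM. The spread in both groups was near that of counting alone, with a coefficient of variation of 36.3% against 45.9% with HCME-sEVs and of 22.6% against 21.0% with LME-sEVs.

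*Gcnt1* lies on chromosome 19 from 17326141 to 17372844 on the minus strand. Its counts were 17, 23, 15 and 9 with HCME-sEVs and 10, 5 and 16 with LME-sEVs. HCME-sEV library 4, at 2.09 CPM, was below 2 of the LME-sEV libraries. The means of 3.99 ± 1.52 CPM (n = 4, SD) with HCME-sEVs, against 2.30 ± 1.04 CPM (n = 3, SD) with LME-sEVs gave a log2 fold change of -0.77 (95% interval -1.61 to 0.063, edgeR FDR 0.262). A difference was not detectable at this depth, and the interval reaches from a large fall to a slight rise.

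*Gcnt2* and *Gcnt4* both lie on chromosome 13, from 40859754 to 40960892 and from 96924689 to 96950906, on the plus strand. *Gcnt2* was counted 6, 5, 5 and 4 times with HCME-sEVs and 1, 4 and 1 times with LME-sEVs. *Gcnt4* was counted 3, 7, 6 and 9 times and 2, 3 and 2 times. For both genes the CPM values of the groups did not overlap, yet the nearest libraries of the groups were apart by less than 1 count, 0.0322 CPM for *Gcnt2* and 0.0484 CPM for *Gcnt4*. With counts summed over a group, the ratio of LME-sEVs to HCME-sEVs was 0.363 for *Gcnt2* (6 against 20 counts, exact 95% counting interval 0.119 to 0.938) and 0.339 for *Gcnt4* (7 against 25 counts, interval 0.124 to 0.807). Without a filter on low counts, edgeR's quasi-likelihood test gave an FDR of 0.423 for *Gcnt2* and 0.274 for *Gcnt4*. Several genes overlap *Gcnt2* on the opposite strand, so its few counts are uncertain, and *Gcnt4* overlaps *Gm48597* in the same way.

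The summed level of the 4 genes overlapped between the groups, whereas the share of *Gcnt3* in it did not. Summed, they were at 6.96, 10.4, 8.51 and 6.03 CPM with HCME-sEVs and at 7.51, 8.96 and 8.50 CPM with LME-sEVs, so every LME-sEV library lay within the range of the HCME-sEV libraries. *Gcnt3* took 10.3%, 14.6%, 18.8% and 15.4% of these counts in HCME-sEV libraries 1 to 4. In LME-sEV libraries it took 53.6%, 70.0% and 56.8%. The highest share with HCME-sEVs had an exact binomial 95% interval of 7.21% to 36.4% over 32 counts, and the lowest with LME-sEVs one of 33.9% to 72.5% over 28 counts, so these 2 intervals overlap slightly. The other 3 genes together were at 6.77 ± 1.57 CPM (n = 4, SD) with HCME-sEVs, against 3.28 ± 0.523 CPM (n = 3, SD) with LME-sEVs. This share rests in part on *Gcnt3*, which was chosen for its rise, and is a description.

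**Figure D2:**
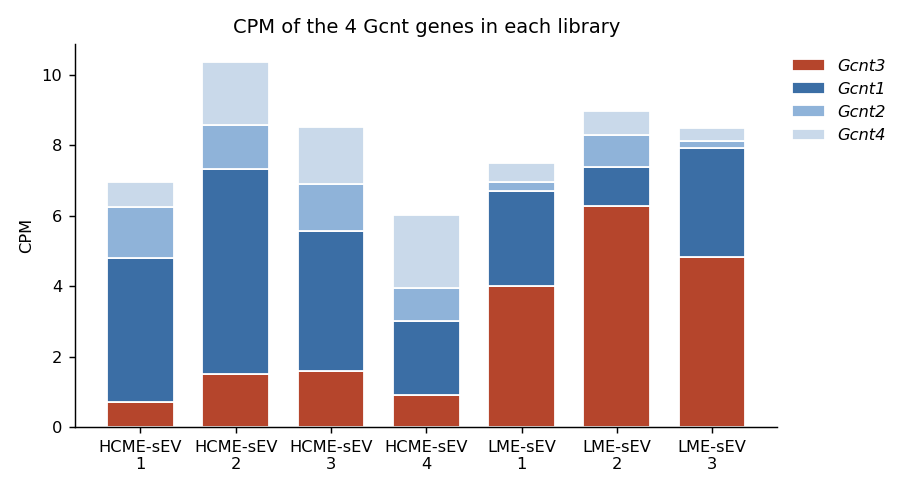
Stacked bars of the TMM-normalized CPM of *Gcnt3* (red), *Gcnt1*, *Gcnt2* and *Gcnt4* (blues) in each of the 7 libraries, on an axis that starts at 0. The total is between 6.03 and 10.4 CPM in all libraries, and *Gcnt3* is the largest part in the 3 LME-sEV libraries.

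Over the 7 libraries, the genes whose log2 CPM followed that of *Gcnt3* most closely were *Cnot6l*, *Slamf6*, *Tg*, *Cep85l* and *Traf1*, with Pearson r between 0.987 and 0.993 among 9695 genes that averaged 20 counts or more. Cnot6l is a subunit of the mRNA deadenylase complex, Slamf6 a receptor of the SLAM family and Traf1 an adaptor of TNF receptors. The 7 points share group, library and depth, and the correlation is given as a description. The fitted log2 fold changes of these genes lay between 0.29 for *Traf1* and 1.12 for *Tg*.

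Among markers of other blood cells, the sums for B cells and for myeloid cells did not overlap between the groups, whereas the other sums did. The 9 markers of basophils, mast cells and eosinophils summed to at most 35.4 CPM with HCME-sEVs and between 29.8 and 46.6 CPM with LME-sEVs, and *Prg2* among them had 0, 2, 2 and 2 counts against 18, 41 and 21. Of the 6 of these markers that were tested, 3 were higher and 0 lower at an edgeR FDR under 0.05, beside 3.75% and 5.21% of all tested genes. The log2 fold change was above 0 for 5 of the 6, and for *Cpa3* it was -0.26 (edgeR FDR 0.721). B-cell markers, of which *Ighm* gave most counts, summed to between 240 and 283 CPM and between 324 and 346 CPM, while *Cd79a* had at most 2 counts in a library. Myeloid markers summed to between 6.26 and 7.20 CPM and between 9.08 and 12.1 CPM, and erythroid and platelet markers to between 74.7 and 182 CPM and between 158 and 205 CPM. Although these last sums overlapped, 3 of the 8 erythroid and platelet markers (*Ppbp*, *Pf4* and *Hba-a1*) were higher and 0 lower at an edgeR FDR under 0.05. Of 5 B-cell markers tested, 1 (*Ighm*) was higher and 0 lower. These counts stand beside the same 3.75% and 5.21% of all tested genes. NK-cell markers were at most 2.16 CPM in any library. No marker of these lists was at 0 in all 7 libraries, and the part of these cells in the level of *Gcnt3* was not tested. In such bulk libraries, more cells of a type and more RNA per cell cannot be told apart.

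*B4galt1* encodes the galactosyltransferase that extends core 2 and N-glycan branches into N-acetyllactosamine, and it was the most abundant member. The gene lies on chromosome 4 from 40804602 to 40854005 on the minus strand. It was at 191, 183, 198 and 231 CPM with HCME-sEVs and at 242, 236 and 214 CPM with LME-sEVs. HCME-sEV library 4 lay within the range of the LME-sEV libraries. The log2 fold change of 0.20 (95% interval 0.016 to 0.38, edgeR FDR 0.177) did not pass after correction. It made up between 53.7% and 61.4% of the counts of the 10 genes in every library.

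*St3gal1* caps core 1 with sialic acid and so competes with the Gcnt enzymes for the same substrate. Its gene lies on chromosome 15 from 67102875 to 67176830 on the minus strand. Levels were 19.2, 17.4, 17.5 and 21.6 CPM with HCME-sEVs and 18.2, 20.8 and 18.7 CPM with LME-sEVs, so the LME-sEV libraries lay within the range of the other group. The log2 fold change was 0.02 (edgeR FDR 0.950), with a 95% interval from -0.27 to 0.31. Per count of *St3gal1*, *C1galt1* had 2.55, 3.72, 3.97 and 2.74 counts with HCME-sEVs and 4.09, 4.73 and 5.67 with LME-sEVs. The ratios did not overlap, though HCME-sEV library 3 and LME-sEV library 1 were close.

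*St3gal6* encodes a sialyltransferase that acts on N-acetyllactosamine and takes part in making sialyl Lewis x, the sugar bound by selectins. It lies on chromosome 16 from 58468125 to 58524243 on the minus strand and overlaps *Dcbld2* on the opposite strand. It was at 39.9, 35.6, 34.0 and 36.0 CPM with HCME-sEVs and at 29.5, 25.5 and 30.5 CPM with LME-sEVs. Every LME-sEV library was below every HCME-sEV library, and the spread in both groups was near that of counting alone. The log2 fold change of -0.35 (SE 0.12, edgeR FDR 0.0653) missed the threshold, and over the 15 other settings its FDR ranged from 0.0531 to 0.272. Per count of *St3gal1*, *St3gal6* had between 1.67 and 2.08 counts with HCME-sEVs and between 1.23 and 1.63 with LME-sEVs, with no overlap.

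*Fut7* encodes the fucosyltransferase that completes sialyl Lewis x and lies on chromosome 2 from 25423267 to 25426374 on the plus strand. It was at 12.5, 13.9, 14.1 and 14.8 CPM with HCME-sEVs and at 12.3, 9.63 and 11.0 CPM with LME-sEVs. The groups did not overlap, but the nearest libraries differed by 0.151 CPM, less than 1 count. The log2 fold change of -0.34 (95% interval -0.68 to 0.011, edgeR FDR 0.238) did not pass the threshold.

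*St6gal1* adds α2,6-linked sialic acid, mostly to N-glycans, and so makes the ligand of CD22. It lies on chromosome 16 from 23224740 to 23360350 on the plus strand and overlaps *BC106179* on the opposite strand. Levels were 5.28, 7.07, 12.0 and 9.75 CPM with HCME-sEVs and 10.2, 8.06 and 9.08 CPM with LME-sEVs. The HCME-sEV libraries alone spread over more than the range of the other group, with a coefficient of variation of 34.5% where counting gives 17.1%. The log2 fold change was 0.097 with a 95% interval from -0.40 to 0.60 (edgeR FDR 0.859).

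The members stood in the order *B4galt1*, *C1galt1*, *St3gal6*, *St3gal1*, *Fut7*, *St6gal1*, *Gcnt1*, *Gcnt3*, *Gcnt4* and *Gcnt2* by mean level over all libraries. Neighbours down to *Fut7* kept this order in every library. *Fut7* and *St6gal1* were separated in each library too, but HCME-sEV library 3 held 14.1 CPM of the former and 12.0 CPM of the latter. *Gcnt1* and *Gcnt3* changed places between the groups, with *Gcnt1* above in all 4 HCME-sEV libraries and *Gcnt3* above in all 3 LME-sEV libraries.

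**Figure D3:**
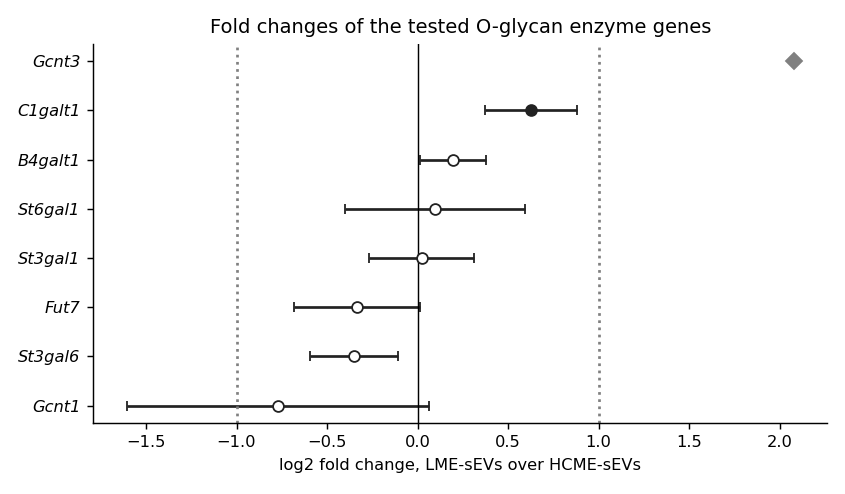
Fold change of the 8 tested genes on the log2 scale, LME-sEVs over HCME-sEVs, with 95% intervals from edgeR's fit, and with dotted lines at a change of 1 in either direction. The filled circle (*C1galt1*, 0.63) marks an FDR under 0.05, open circles did not pass, and the grey diamond (*Gcnt3*, 2.08) is the gene that led to the choice of family and carries no interval.

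**Figure D4:**
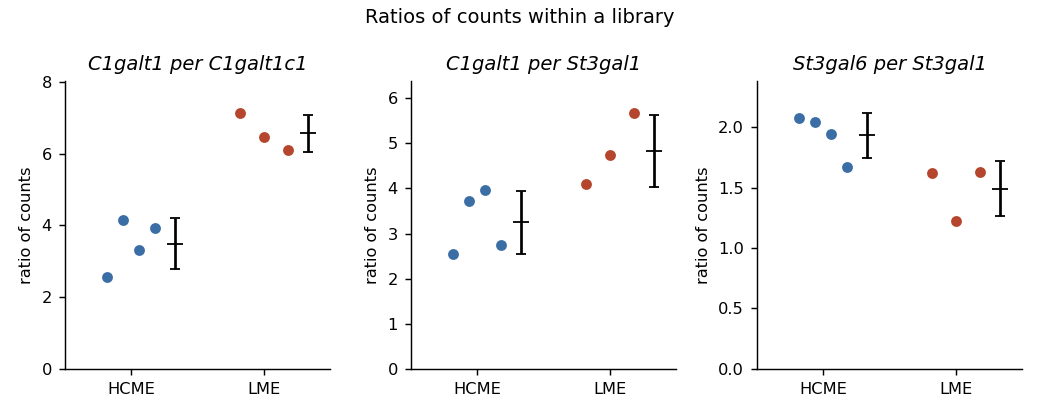
Counts of one gene per count of another within each library, on axes that start at 0, with HCME-sEV libraries in blue (n = 4), LME-sEV libraries in red (n = 3), and black bars for the mean and SD. *C1galt1* per *C1galt1c1* is at most 4.15 with HCME-sEVs and at least 6.11 with LME-sEVs, while the other 2 ratios separate the groups by less. *C1galt1* and *St3gal6* alone already separate the groups, so the ratios are descriptions.

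Around these enzymes, 109 other genes of glycosylation were listed by role, and 79 had enough counts to be tested. Of the 79, 3 were higher and 4 lower at an FDR under 0.05, beside 3.75% and 5.21% of all tested genes, with a median log2 fold change of -0.031 against 0.0096 for all tested genes. None of the 79 had a log2 fold change beyond 1 together with an FDR under 0.05, beside 1.28% of all tested genes. At the start of the pathway, the transferases that place the first GalNAc went both ways: of 10 tested, *Galnt3* was higher and *Galnt6* lower.

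*Galnt3* was at 28.1, 37.9, 36.4 and 25.5 CPM with HCME-sEVs and at 43.4, 41.2 and 46.2 CPM with LME-sEVs, with no overlap. Its log2 fold change was 0.45 (SE 0.13, edgeR FDR 0.0325), which was lost without HCME-sEV library 1 (FDR = 0.0656) or 4 (FDR = 0.105) and without LME-sEV library 1, 2 or 3 (FDR between 0.0707 and 0.146). *Galnt6* was at 29.3, 32.1, 26.6 and 30.6 CPM and at 19.0, 20.4 and 17.8 CPM. Its log2 fold change of -0.64 (SE 0.13, edgeR FDR 0.00373) stayed past the threshold in all 7 fits that left out a library.

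Of 9 other sialyltransferases tested, *St8sia4* was higher and *St6galnac4* lower, beside 3.75% and 5.21% of all tested genes. *St8sia4*, which makes polysialic acid, was at 51.1, 59.9, 59.3 and 48.0 CPM with HCME-sEVs and at 72.7, 74.4 and 82.7 CPM with LME-sEVs. Its log2 fold change was 0.49 (SE 0.10, edgeR FDR 0.00430), and it passed in all 7 fits that left out a library. *St6galnac4*, which adds sialic acid to the GalNAc of O-glycans, had 67.4 ± 10.6 CPM (n = 4, SD) with HCME-sEVs, against 51.0 ± 7.13 CPM (n = 3, SD) with LME-sEVs, and the groups overlapped. Its log2 fold change of -0.41 (edgeR FDR 0.0398) did not pass without HCME-sEV library 1 or 2 or without LME-sEV library 2 or 3, with an FDR up to 0.242.

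No gene passed the threshold among 8 tested for core extension, 5 other fucosyltransferases and sulfotransferases, 10 of N-glycan processing, 20 of nucleotide sugar supply and Golgi transport, and 2 sialidases. Of all tested genes, 3.75% were higher and 5.21% lower. Lists this short would hold few calls or none at those shares, so nothing is read from the absence. These lists had median log2 fold changes of -0.21, 0.18, -0.055, -0.012 and 0.080 in that order.

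Among 15 carriers of O-glycans and lectins, 1 gene (*Cd96*) was higher and 2 were lower, *Selp* among them, beside 3.75% and 5.21% of all tested genes. *Selp*, the gene of P-selectin, was lower, at 14.7 ± 1.41 CPM (n = 4, SD) with HCME-sEVs, against 8.03 ± 1.84 CPM (n = 3, SD) with LME-sEVs and an FDR of 0.00640 in the same edgeR test, and had an FDR of 0.0635 without LME-sEV library 3. *Cd96* was higher, at 122 ± 10.9 CPM (n = 4, SD) with HCME-sEVs, against 154 ± 10.5 CPM (n = 3, SD) with LME-sEVs. Its FDR in the same edgeR test was 0.0215, and it did not pass without HCME-sEV library 2 or LME-sEV library 1 or 2 (FDR between 0.0528 and 0.144). The paper reports the opposite direction, a decrease of CD96 with LME-sEVs, in a separate ex vivo experiment. That experiment measured RNA for some genes and protein for others, whereas the values here are RNA. The reason for the difference in direction was not tested.

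None of the genes of 4 main O-glycosylated proteins of T cells passed the threshold. *Selplg*, the selectin ligand PSGL-1, was at 218 ± 14.9 CPM (n = 4, SD) with HCME-sEVs, against 249 ± 12.7 CPM (n = 3, SD) with LME-sEVs, with a log2 fold change of 0.19 (edgeR FDR 0.140). *Spn* (CD43) had a log2 fold change of -0.16 (FDR = 0.263), *Cd44* one of -0.038 (FDR = 0.833) and *Ptprc* (CD45) one of -0.036 (FDR = 0.820), in the same edgeR test.

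**Figure D5:**
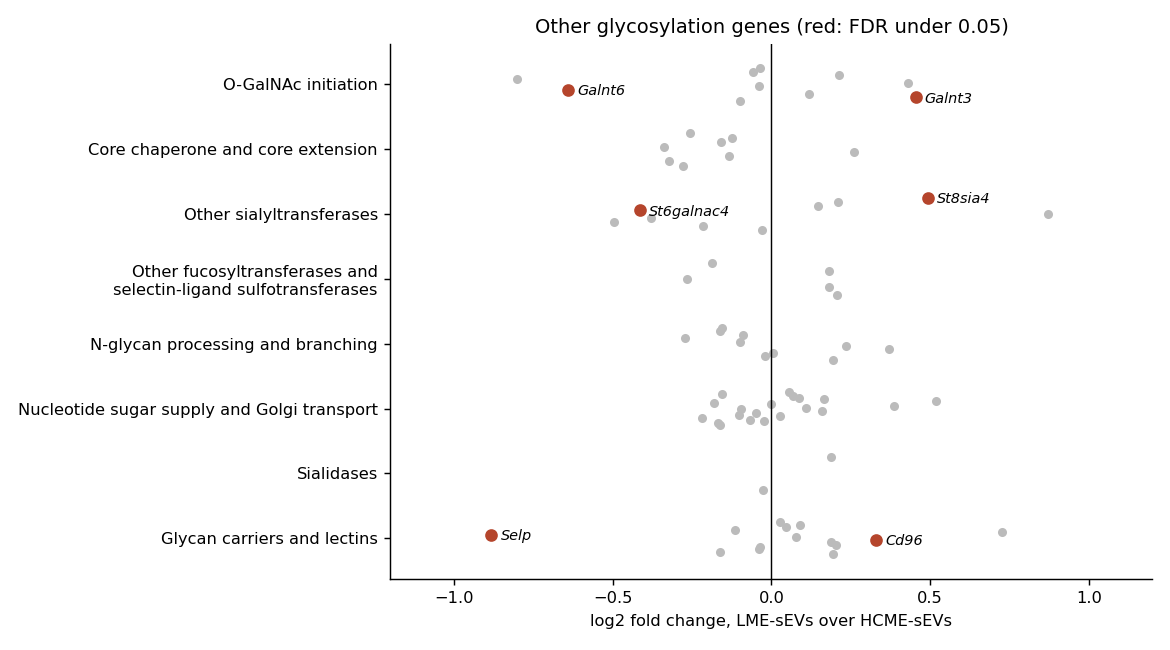
Each point is 1 of the tested glycosylation genes outside the family (1 gene is not shown), by role, at its log2 fold change of LME-sEVs over HCME-sEVs. Red points with names have an FDR under 0.05 (*Galnt3*, *St8sia4* and *Cd96* higher, *Galnt6*, *St6galnac4* and *Selp* lower), and grey points did not pass.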

How the data were processed

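Libraries were made with the QuantSeq 3′ kit with molecular identifiers (UMI) from 500 ng of RNA. The authors trimmed reads with cutadapt 2.10, mapped them to GRCm38 with STAR 2.5.3a, collapsed them by UMI with UMI-tools 1.0.0 and deposited counts per gene from featureCounts of Subread 2.0.0, with neither normalization nor filter. The annotation release and strand setting are not given in the sources used here. Collapsing by UMI removes PCR copies.

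All 7 libraries were fitted in edgeR 4.0.16 (R 4.3.3; glmQLFit, then glmQLFTest of LME-sEV over HCME-sEV, no covariates) after TMM scaling, for genes that averaged 5 counts or more. The FDR is the Benjamini-Hochberg value over every gene fitted. Standard errors were taken as the size of the log2 fold change over the square root of F, and 95% intervals from the t distribution with the fit's degrees of freedom. Log2 CPM used a prior count of 2. The steps were first tested on simulated data. The members and lists were chosen with earlier results of these data known. All 10 members were named, with genes of the glycosylation lists past an FDR of 0.05 (at most 6 per list), the carriers *Selplg*, *Spn*, *Cd44* and *Ptprc*, the 5 genes most like *Gcnt3*, and, outside this rule and after their values were seen, *C1galt1c1* and the markers. Some listed genes are not reported here. *Fuk* was looked up under its current symbol *Fcsk*, which the table uses.

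Positions and overlaps came from GENCODE vM21. With blast 2.17.0, 0 of the 10 genes had a near-identical 3′ end (last 300 bases, 95% identity over at least 200) in another gene. Alternatives were other normalizations, filters and tests (DESeq2 1.42.0, limma-voom of limma 3.58.1), the replicate number as a block, and leaving out each library. Replicates of a group differed by more than sampling noise: chi-square over its degrees of freedom was 2.19 to 6.66.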

Additional observations from a re-analysis of the deposited data

How the results depend on the processing

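*C1galt1* kept its direction and an FDR under 0.05 in all 15 other settings, with log2 fold changes from 0.52 to 0.76. *Gcnt3* kept its direction in the 14 settings that tested it, from 1.90 to 2.25. Since *Gcnt3* was chosen for its rise in these same libraries, this range is a description only. Requiring at least 5 counts in every library left 1 family gene higher, because *Gcnt3* has fewer in 2 HCME-sEV libraries. The signs of *St3gal1* (-0.037 to 0.095) and *St6gal1* (-0.078 to 0.29) turned in some settings, never past the threshold.

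Same-numbered libraries of the 2 groups had deviations from their group means that correlated at 0.072, 0.155 and 0.027, and only LME-sEV library 2 correlated best with its own number, so the numbers were not taken as pairs. With the replicate block, 3 family genes were higher, *B4galt1* among them (log2 fold change 0.27, FDR = 0.0229, edgeR), and 0 lower, and 5 of the other glycosylation genes were higher and 7 lower, *Galnt3* being lost. Scaling by library size alone gave 5 of these higher. It also turned the split over all genes from 473 higher and 658 lower (41.8% higher) to 612 and 465 (56.8% higher).

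Leaving out each library gave between 1 (without LME-sEV library 1 or 2) and 5 (without HCME-sEV library 3) other glycosylation genes higher, and between 1 (without LME-sEV library 3) and 4 lower. Over all tested genes it gave from 168 to 544 higher and from 223 to 761 lower, and the largest losses came without HCME-sEV library 2 (301 and 422), LME-sEV library 2 (168 and 223) and LME-sEV library 3 (195 and 263). With counts under 10 in every library, *Gcnt2* and *Gcnt4* are limited by depth.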
